A study of Mus musculus with 14 samples.

Results

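The mouse small nucleolar RNAs and small Cajal body RNAs were examined in RNA pulled down with AUTS2 from newborn cortex. Members were all genes whose annotated symbol begins with Snora, Snord or Scarna, 147 of the 51626 gene symbols in the tables. They comprised 98 box C/D RNAs (Snord), 40 box H/ACA RNAs (Snora) and 9 scaRNAs (Scarna). Among the 147 symbols, 3 (Snora16a, Snora43 and Snord80) had more than 1 annotated entry. The entries of each overlap at the same place, and they were summed.

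AUTS2 is the protein of a gene linked to neurodevelopmental disorders, and the study asked which transcripts an AUTS2-containing complex binds. AUTS2 RIP libraries (RNA immunoprecipitation with an antibody to the AUTS2 C terminus, n = 2, A and B), IgG immunoprecipitation libraries (a non-specific antibody, n = 2) and 10% input libraries (the lysate before the pull-down, n = 2) came from cortex of C57BL6/J mice at postnatal day 0.5, made from total RNA. Each replicate pooled the cortex of 2 neonates, and libraries with the same letter form a matched trio. For reference, polyA-selected RNA of frontal cortex was sequenced at the same age from 4 Auts2 cKO mice (both Auts2 alleles with a floxed exon 15, recombined by Emx1-cre, which acts in the dorsal telencephalic lineage and leaves other cells intact) and 4 wild type C57BL6/J mice.

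Small nucleolar RNAs work as guides within protein particles of the nucleolus. Box C/D RNAs bind fibrillarin, NOP56, NOP58 and SNU13 and direct 2′-O-methylation, mostly of ribosomal RNA. Box H/ACA RNAs bind dyskerin, GAR1, NHP2 and NOP10 and direct pseudouridylation. The scaRNAs carry the same boxes and guide the modification of spliceosomal snRNAs in Cajal bodies. In mammals most of these RNAs are cut out of introns of host genes, many of which encode ribosomal or translation proteins. Of the members, 139 lay within a host gene on the same strand, 92 within a protein-coding host, and 78 inside a host intron with no host exon over them.

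Sequences are shown for 9 members whose levels carry the results: Snord17, Snord22, Snord15a, Snord118, Snora23 and Snora81, which were lower in AUTS2 RIP libraries than in input, and Snord116l14, Snora21 and Scarna13, which were not called against input. They are the DNA-letter sequences of the GENCODE vM21 transcripts (build GRCm38), 5′ to 3′. Capitals mark a C box core (TGATGA, searched in the first 25 nt) and a D box (CTGA, last 15 nt) in box C/D members. In the others they mark the H box (ANANNA) nearest the middle of the RNA and an ACA in the last 8 nt.
Snord17: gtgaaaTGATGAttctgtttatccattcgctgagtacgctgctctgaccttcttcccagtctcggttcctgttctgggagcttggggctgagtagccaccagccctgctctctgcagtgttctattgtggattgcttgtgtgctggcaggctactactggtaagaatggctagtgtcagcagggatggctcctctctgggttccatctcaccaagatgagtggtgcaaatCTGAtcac
Snord22: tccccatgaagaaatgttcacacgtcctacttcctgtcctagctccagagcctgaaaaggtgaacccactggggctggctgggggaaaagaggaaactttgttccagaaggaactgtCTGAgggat
Snord15a: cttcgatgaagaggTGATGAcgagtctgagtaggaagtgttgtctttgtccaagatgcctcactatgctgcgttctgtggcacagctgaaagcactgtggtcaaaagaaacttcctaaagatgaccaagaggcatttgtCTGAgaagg
Snord118: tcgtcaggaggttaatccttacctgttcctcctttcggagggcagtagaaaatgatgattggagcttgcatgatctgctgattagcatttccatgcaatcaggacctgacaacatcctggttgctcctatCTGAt
Snord116l14: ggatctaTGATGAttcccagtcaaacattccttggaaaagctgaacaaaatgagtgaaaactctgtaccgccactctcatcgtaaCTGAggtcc
Snora23: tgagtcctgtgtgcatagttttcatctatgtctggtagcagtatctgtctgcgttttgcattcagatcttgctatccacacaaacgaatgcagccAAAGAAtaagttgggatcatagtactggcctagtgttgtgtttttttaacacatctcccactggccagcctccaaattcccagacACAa
Snora81: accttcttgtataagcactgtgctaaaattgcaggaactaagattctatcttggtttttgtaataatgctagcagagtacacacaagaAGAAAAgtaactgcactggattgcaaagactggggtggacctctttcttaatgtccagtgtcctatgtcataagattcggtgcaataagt
Snora21: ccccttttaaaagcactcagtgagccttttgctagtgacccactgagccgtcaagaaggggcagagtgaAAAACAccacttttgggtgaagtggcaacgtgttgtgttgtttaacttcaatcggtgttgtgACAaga
Scarna13: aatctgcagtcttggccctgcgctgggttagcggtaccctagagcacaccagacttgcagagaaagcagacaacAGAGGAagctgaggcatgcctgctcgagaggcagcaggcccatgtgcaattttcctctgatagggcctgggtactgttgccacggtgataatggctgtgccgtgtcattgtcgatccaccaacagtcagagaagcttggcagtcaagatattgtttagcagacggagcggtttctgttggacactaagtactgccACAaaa
Snord17 lies on the minus strand of chr2:144265979-144266216 in an intron of Snx5, and Snord22 on the plus strand of chr19:8725866-8725991, where an exon of its host Snhg1 covers it. Snord15a lies on the minus strand of chr7:99482785-99482932 in an intron of Rps3, and Snord118, which has no host, on the plus strand of chr11:69073427-69073561. Snord116l14 lies on the minus strand of chr7:59871864-59871957 in an intron of Snhg14. Snora23 lies on the plus strand of chr7:110046364-110046547 in an intron of Ipo7, with 1600010M07Rik annotated on the other strand. Snora81 lies on the plus strand of chr16:23110756-23110933, where an exon of a transcript of its host Eif4a2 covers it. Snora21 lies on the minus strand of chr11:97781639-97781775 in an intron of Rpl23. Scarna13 lies on the minus strand of chr12:105031075-105031349 in an intron of Snhg10.

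The boxes differed between box C/D and box H/ACA members, while the scaRNAs held both kinds. A C box core stood in the first 25 nt of 69 of 98 box C/D members (70.4%) and of 0 of 40 box H/ACA members, against 1.00% of 8964 other annotated transcripts of 60 to 300 nt. A D box stood in the last 15 nt of 92.9% of box C/D members and 7.22% of those other transcripts. An ACA stood in the last 8 nt of 38 of 40 box H/ACA members (95%), against 10.6% of the other transcripts. The H box letters are common: 38 of 40 box H/ACA members held them in the middle of the RNA, and so did 68.9% of the other transcripts. Of the 9 scaRNAs, 4 held the C box core, 5 the D box, 4 the ACA and 7 the H box letters in these windows. Snord22 and Snord118 held no C box core and Snora81 held no ACA in these windows.

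Levels are the authors' FPKM, fragments divided by transcript length and scaled to the library, summed per gene. Multiplied by transcript length, the values of short single-transcript genes fell on whole multiples of a library-specific step, the worth of 1 fragment, within 0.05 of a fragment for 91.4% of values of up to 20 fragments beside IgG and 91.2% beside input. For members the shares were 70.2% and 68.8%. An exon of another gene entry overlaps 73 of the 147 members, and reads there cannot be assigned with certainty. For Snora43 that entry is only its own second one. At a length of 130 nt, 1 fragment was worth 1.85 and 1.89 FPKM in the AUTS2 RIP libraries, and 4.99 and 3.46 FPKM in the IgG libraries A and B. In the table with input it was worth 1.88 and 1.91 FPKM in AUTS2 RIP, and 4.35 and 5.53 FPKM in the input libraries A and B. The AUTS2 RIP libraries were thus the deepest of the pull-down set, and a 0 in an IgG or input library is a weaker limit than a 0 in AUTS2 RIP. Fragment numbers below are these recovered numbers. The 95% intervals on ratios of fragments (exact, conditional on their sum, scaled by the steps) cover counting error only, since reads without molecular identifiers are not independent molecules.

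Detection followed length. Of members under 80 nt, 8 of 43 were above 0 in at least 1 AUTS2 RIP or IgG library, against 25 of 45 at 80 to 99 nt, 15 of 15 at 100 to 129 nt and 43 of 44 at 130 nt and over. Members listed at 0 throughout that table numbered 56, of which 54 were box C/D RNAs, the shortest class (median 84.5 nt, against 132.5 nt for box H/ACA and 140 nt for scaRNAs). In the table with input, 57 members were at 0 throughout. Among the 17 Snord116 copies of the neuronal Snhg14 cluster there were only 4 distinct sequences, and 14 copies were identical, so reads could not be assigned among those 14. Of the 17 copies, 2 were above 0 in either table, Snord116l14 and Snord116l12, the second at 1 fragment in each AUTS2 RIP library and 1 in IgG A and input A. All 17 copies are 94 nt long, and those at 0 are most of the 20 members of 80 to 99 nt at 0 beside IgG. The lower share above 0 at 80 to 99 nt than at 100 to 129 nt thus rests largely on these copies. Snord64 and Snord107 of the same locus were listed at 0 in both tables.

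Summed over each class, the members were lower in AUTS2 RIP than in either control. All members together made up 2523 and 2249 FPKM in AUTS2 RIP libraries A and B, and 3526 and 4134 FPKM in IgG libraries A and B. In the table with input they made up 2568 and 2283 FPKM in AUTS2 RIP, and 4428 and 5550 FPKM in input. Both AUTS2 RIP sums lay below both control sums in each table, for all members and for each class. Box C/D RNAs summed to 909 and 921 FPKM in AUTS2 RIP, and 1497 and 1681 FPKM in IgG. In the table with input the box C/D sums were 925 and 935 FPKM in AUTS2 RIP, and 2242 and 2932 FPKM in input. Box H/ACA RNAs summed to 606 and 606 FPKM in AUTS2 RIP, and 872 and 1007 FPKM in IgG. In the table with input they summed to 617 and 616 FPKM in AUTS2 RIP, and 1153 and 1542 FPKM in input. The scaRNA sums were lower against IgG (1008 and 722 FPKM in AUTS2 RIP, 1156 and 1446 FPKM in IgG) and closest to the control against input (1026 and 733 FPKM in AUTS2 RIP, 1033 and 1076 FPKM in input). Scarna10 and Scarna13, a large part of these sums, overlapped between the groups in both tables, and Scarna2 was lower in AUTS2 RIP in both. The lower scaRNA sums are thus not a drop of each member, and how far they rest on Scarna2 was not tested. With 2 libraries a group no permutation test of a sum can pass 0.05, so the sums were not tested.

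**Figure D1:**
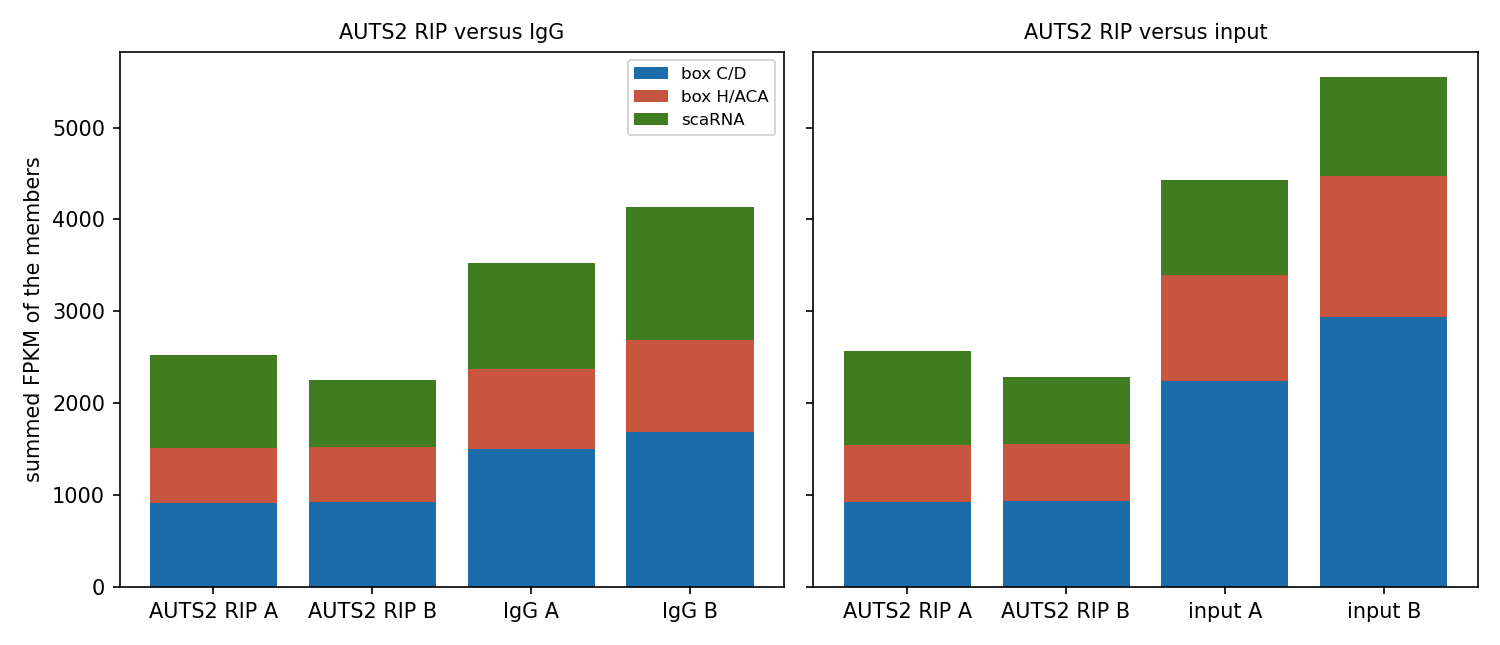
Summed FPKM of the members in each pull-down library (bars from 0, stacked by class), in the table with IgG on the left and with input on the right. The AUTS2 RIP bars reach 2523 and 2249 FPKM in the first table, below both IgG bars at 3526 and 4134 FPKM.

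Against IgG, 83 members averaged at least 1 FPKM and were tested among 14570 genes (limma on log2(FPKM + 1), adjusted p under 0.05, Benjamini-Hochberg over all genes). Of these, 22 were lower in AUTS2 RIP and 3 higher, while 9.69% of all genes tested were called lower and 13.7% higher, 23.4% in all. By class, 11 of 40 box C/D, 8 of 35 box H/ACA and 3 of 8 scaRNAs were called lower. The groups stood apart, AUTS2 RIP below IgG, for 32 of the 83, against 30.2% of all genes, and AUTS2 RIP above IgG for 6, against 34.3%. The median log2 fold change was -0.71 for box C/D, -0.45 for box H/ACA and -0.58 for scaRNAs, beside 0.02 for all genes. Of the 83, 11 passed the filter with an average under 1 FPKM in either group, and 3 of those were called. Leaving out IgG library A left 0 calls among all genes, and 11, 15 and 11 members were called lower without AUTS2 RIP A, AUTS2 RIP B and IgG B. Over all genes these settings called 337, 445 and 617 lower, against 1412 with every library. On single transcripts in place of genes, limma called 0 of all 31647 transcripts. In the gene test, 32 of the 83 members had an unadjusted p under 0.05, a share near that of all genes (5546 of 14570).

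Against input, 84 members were tested among 14458 genes, and 39 were lower and 3 higher in AUTS2 RIP. Of all genes 16.6% were called lower and 19.3% higher, 35.9% in all. By class, 20 of 38 box C/D, 15 of 38 box H/ACA and 4 of 8 scaRNAs were called lower. The groups stood apart, AUTS2 RIP below input, for 48 of the 84, against 35.2% of all genes. The medians were -0.90, -0.89 and -0.77 for the 3 classes in that order, beside -0.02 for all genes. Of the 84, 13 passed with an average under 1 FPKM in either group, and 7 of those were called. The number called lower was 17 without AUTS2 RIP A, 17 without AUTS2 RIP B, 31 without input A and 21 without input B. Over all genes it was 615, 867, 1414 and 1319 in that order, against 2393 with every library. Both comparisons use the same AUTS2 RIP libraries, so their calls are not independent.

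**Figure D2:**
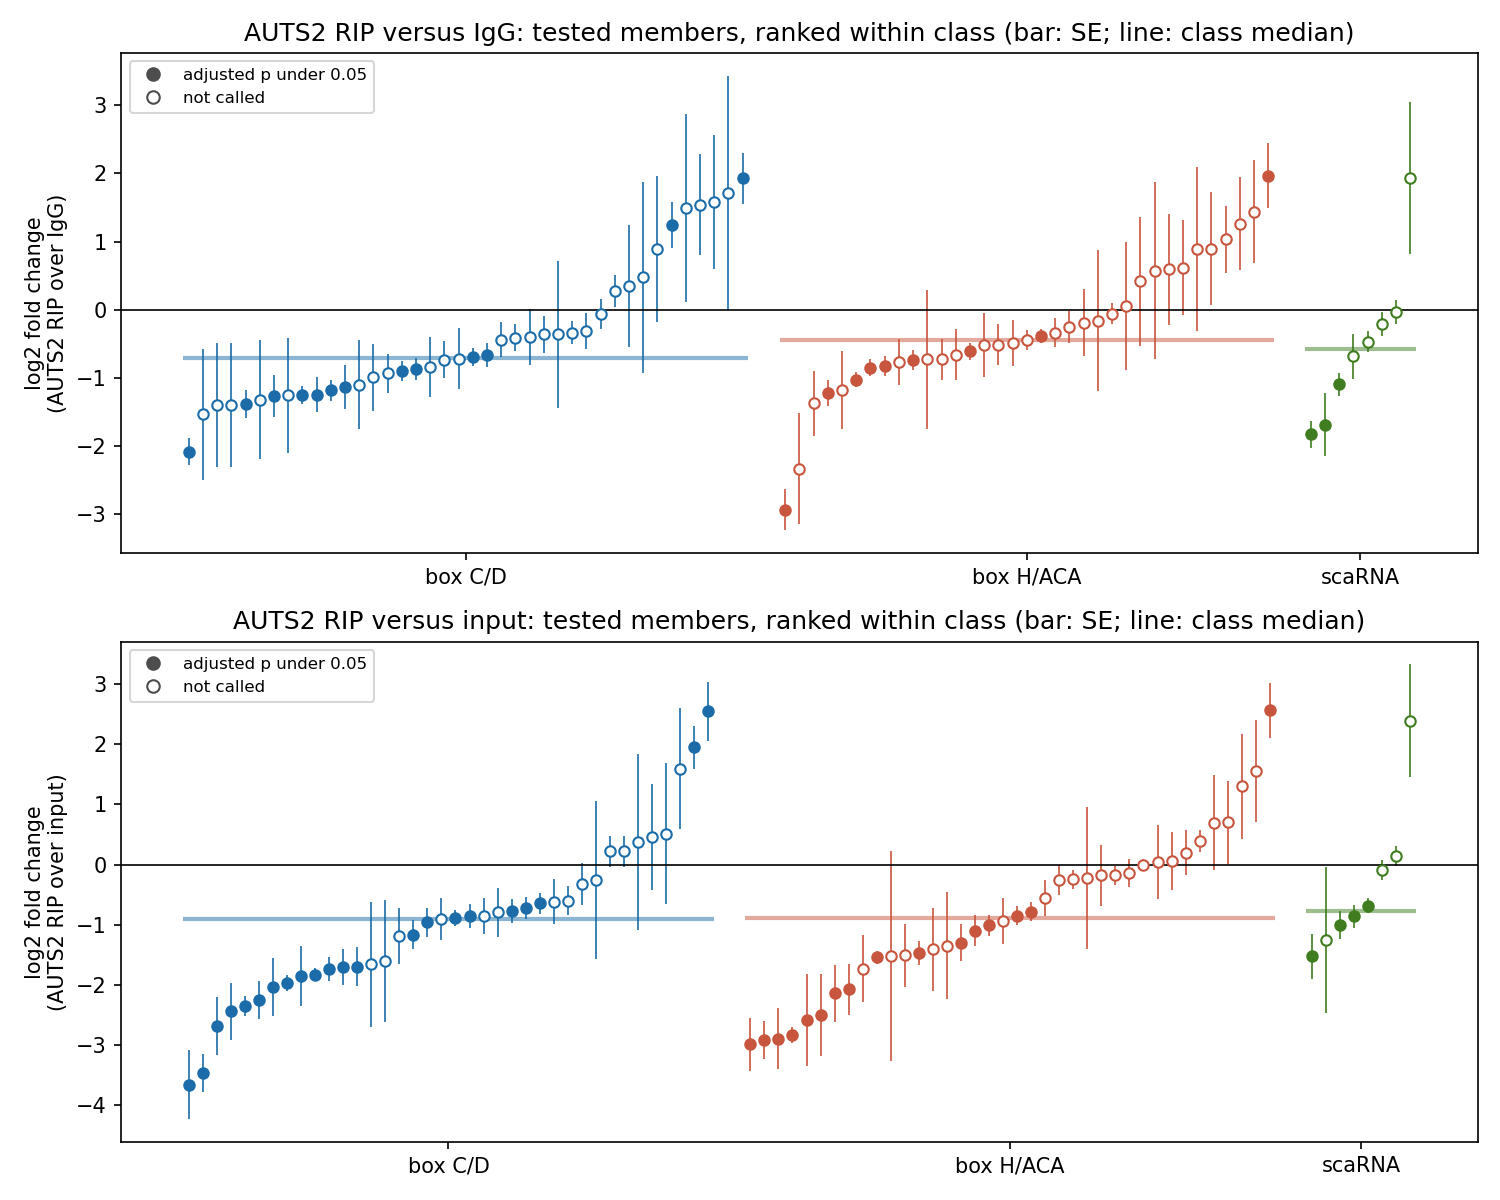
Log2 fold change (AUTS2 RIP over IgG, top, and over input, bottom) of each tested member with its SE, ranked within class, with filled points for an adjusted p under 0.05 and a horizontal line at each class median. Filled points lie mostly below 0, with 3 above 0 in each panel.

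Other short genes had medians close to those of the members. The 657 other genes of 60 to 400 nt tested against IgG had a median log2 fold change of -0.57, and 18.6% of them were called lower, beside -0.52 and 26.5% for the members. Against input, 661 such genes had a median of -0.82 with 29.2% called lower, beside -0.88 and 46.4% for the members. Genes over 400 nt had medians of 0.04 and 0.01. The 138 and 145 other genes annotated as snoRNA or scaRNA, outside the rule by their symbols, had medians of -0.49 against IgG and -0.56 against input. When the trend of the log2 values with gene length was removed, the members' medians became 0.13 and 0.23. The medians of the other snoRNA and scaRNA genes became 0.29 and 0.56. Of those genes 8.70% were called lower and 18.1% higher against IgG, and 8.97% and 23.4% against input. Then 6 members were called lower and 6 higher against IgG, and 13 lower and 14 higher against input. By class against IgG, 3 of 40 box C/D were lower and 4 higher, 2 of 35 box H/ACA lower and 2 higher, and 1 of 8 scaRNAs lower and 0 higher. Against input, 9 of 38 box C/D were lower and 4 higher, 4 of 38 box H/ACA lower and 8 higher, and 0 of 8 scaRNAs lower and 2 higher. Of all genes, 9.70% were called lower and 12.7% higher against IgG in that setting, beside 7.23% and 7.23% of the members. Against input it was 16.0% and 19.0% of all genes, beside 15.5% and 16.7% of the members. Of the 22 members called lower against IgG as reported, 6 were still called lower, and of the 39 against input, 13. The cause of the trend was not tested.

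**Figure D3:**
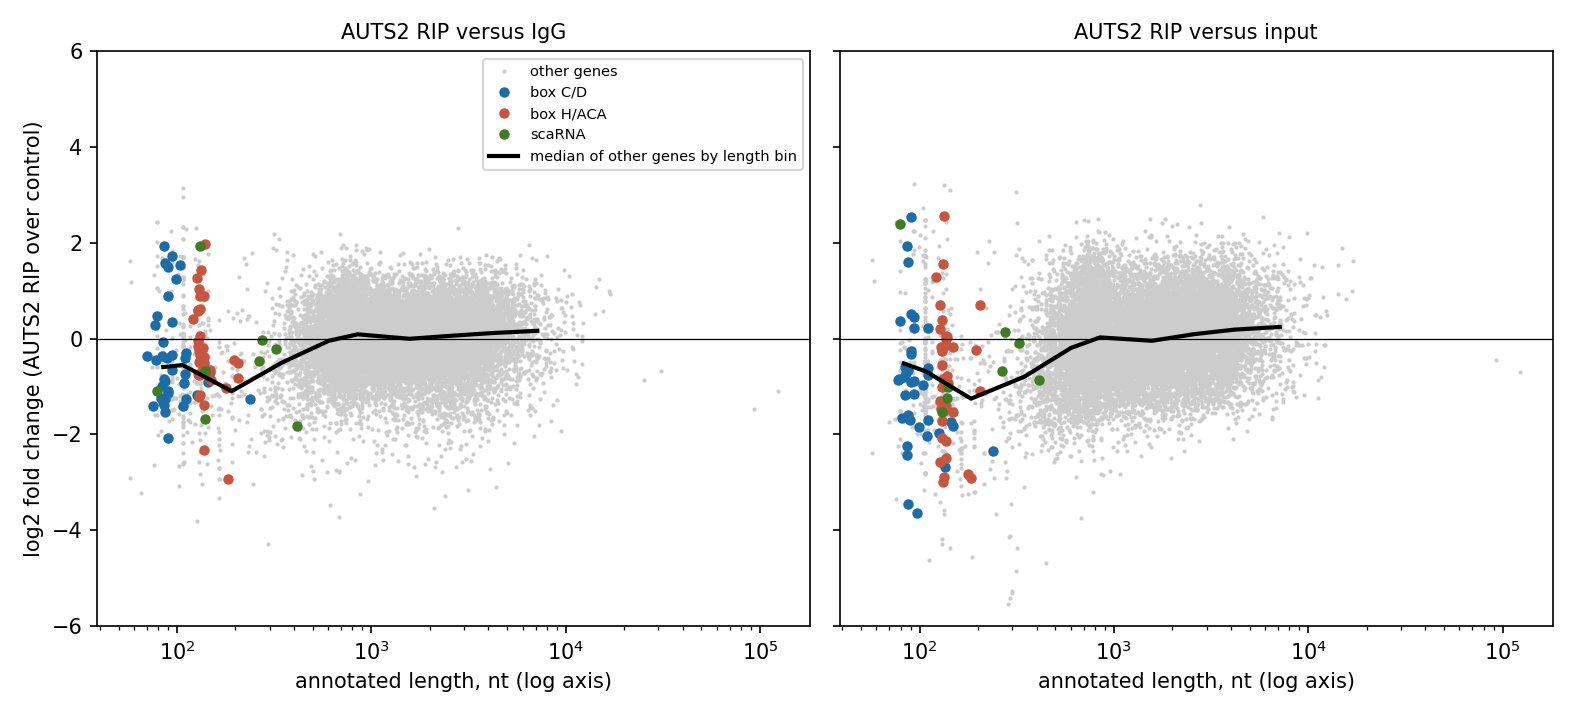
Log2 fold change of every tested gene (grey) and member (coloured by class) against annotated length on a log axis, with the median of other genes by length bin in black. The black line lies below 0 at the members' lengths in both panels and near 0 for genes over 400 nt.

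Many calls rested on few fragments. Of the 25 members called against IgG, 21 had at least 10 fragments over the 4 libraries, 20 lower and 1 higher. Of the 42 called against input, 31 had at least 10, all lower. The counting interval of the fragment ratio excluded 1 for 11 of the 22 lower calls against IgG and for 30 of the 39 lower calls against input. It held 1 for all 6 higher calls.

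**Figure D4:**
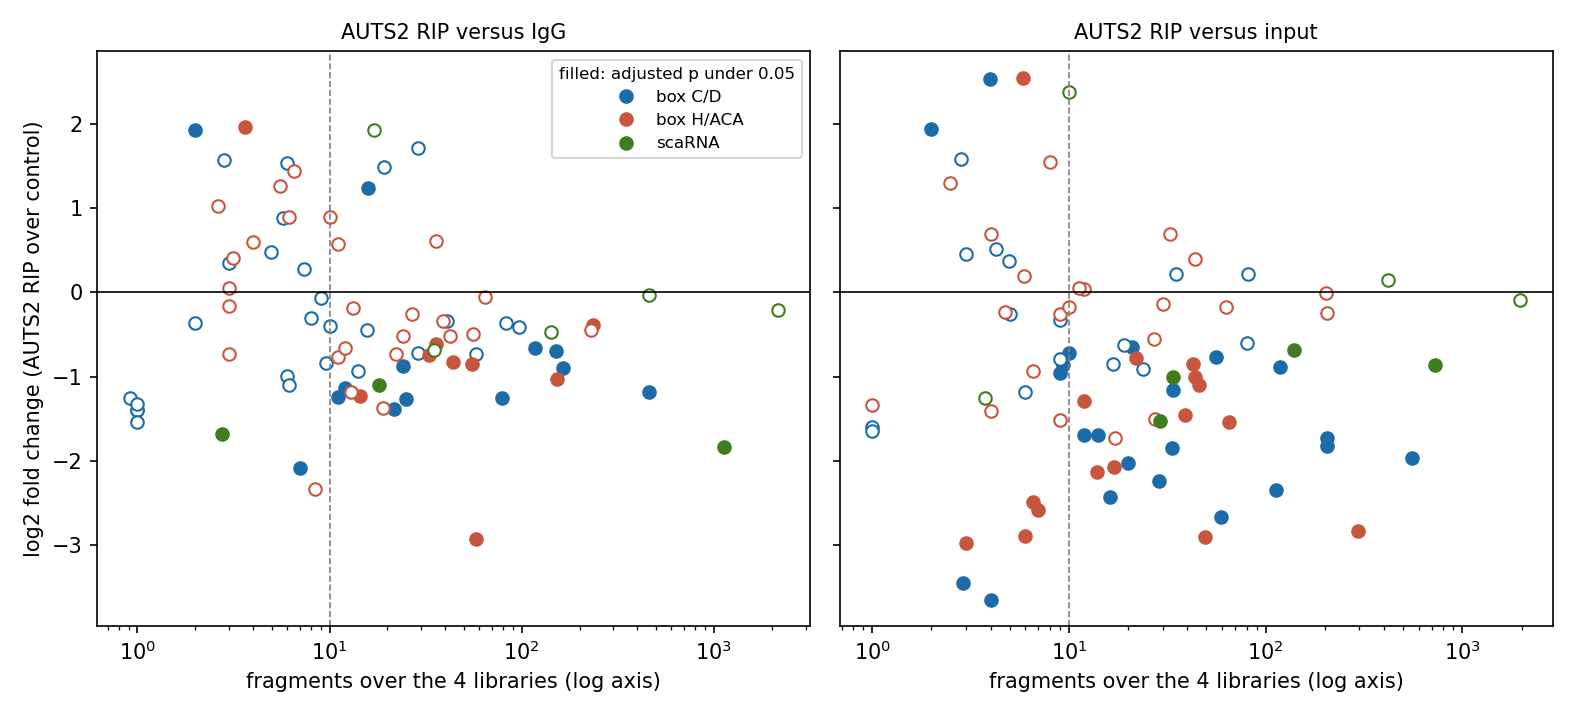
Log2 fold change of each tested member against the fragments behind it over the 4 libraries of the table (log axis, dashed line at 10 fragments), with filled points for an adjusted p under 0.05. All 3 filled points above 0 in the comparison with input lie left of the dashed line.

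Among box C/D RNAs, Snord22 (U22), which takes part in maturation of small-subunit ribosomal RNA, was the most abundant. It had 201 and 226 FPKM in AUTS2 RIP, and 417 and 568 FPKM in IgG. In the table with input it had 205 and 230 FPKM in AUTS2 RIP, and 753 and 961 FPKM in input. The groups did not overlap in either table, and Snord22 fell by 1.19 ± 0.16 against IgG and by 1.97 ± 0.13 against input on the log2 scale (SE, adjusted p = 0.0057 and 0.00077, limma). Its fragment ratio was 0.42 (95% interval 0.35 to 0.51) against IgG and 0.26 (0.22 to 0.31) against input. Snord22 fell by less with the length trend removed, and both calls held (-0.45, adjusted p = 0.017, and -0.87, adjusted p = 0.0032, limma). Its host Snhg1, a noncoding RNA that carries several snoRNAs, was also lower in AUTS2 RIP, with a log2 fold change of -0.99 against IgG and -0.67 against input, and reads over the shared exon cannot be told apart.

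Snord17, inside an intron that no annotated exon covers, stood at 18.1 and 19.6 FPKM in AUTS2 RIP, and 43.6 and 49.1 FPKM in IgG. In the other table it stood at 18.5 and 19.9 FPKM in AUTS2 RIP, and 87.9 and 118 FPKM in input. These values are 18 and 19 fragments in AUTS2 RIP, 16 and 26 in IgG, and 37 and 39 in input. Snord17 fell by 1.25 ± 0.13 against IgG and by 2.35 ± 0.16 against input (log2, SE, adjusted p = 0.0034 and 0.00077). It still fell, by less, when the length trend was removed (-0.72, adjusted p = 0.0098, and -1.50, adjusted p = 0.00091, limma). Its host Snx5, a sorting nexin, was higher against input, at 18.8 and 21.1 FPKM in AUTS2 RIP and 13.5 and 13.2 FPKM in input (log2 fold change 0.54, adjusted p = 0.035, limma). Against IgG, Snx5 was not called (0.15, adjusted p = 0.48).

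Snord21, whose levels stood second among box C/D RNAs in the table with IgG, had 93.6 and 83.1 FPKM in AUTS2 RIP, and 168 and 118 FPKM in IgG. It fell by 0.67 against IgG and by 0.89 against input (log2, adjusted p = 0.043 and 0.0052). Both calls of Snord21 were lost and the sign turned with the length trend removed (0.17, adjusted p = 0.77, and 0.33, adjusted p = 0.17). An exon of its host Rpl5 overlaps Snord21, and reads there cannot be told apart.

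Snord15a and Snord15b lie in the ribosomal protein gene Rps3, Snord15a in an intron and Snord15b where an exon overlaps it. Reads over that exon cannot be told apart. Snord15a had 64.8 and 76.2 FPKM in AUTS2 RIP, and 105 and 125 FPKM in IgG. Against input Snord15a had 66.0 and 77.4 FPKM in AUTS2 RIP, and 256 and 258 FPKM in input. Both RNAs fell in both comparisons: Snord15a by 0.70 and 1.83, and Snord15b by 0.90 and 1.74 (log2). With the length trend removed, the calls against input held, and those against IgG were lost (Snord15a -0.02, adjusted p = 0.92, and Snord15b -0.22, adjusted p = 0.48). Rps3 fell too, by 0.64 and 1.25. Snord116l14, the Snord116 copy with most reads, stood at 28.1 and 39.1 FPKM in AUTS2 RIP, and 41.4 and 43.0 FPKM in IgG, and was not called against IgG or input (log2 fold change -0.34 ± 0.17 and 0.22 ± 0.25, SE). Its host Snhg14, the long noncoding RNA of the imprinted cluster, was higher in AUTS2 RIP, with log2 fold changes of 1.01 and 1.47.

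Box C/D RNAs known for processing of ribosomal RNA, apart from their guide role, gave mixed calls. Snord118 (U8), needed for the large-subunit RNAs, had 21.7 and 9.22 FPKM in AUTS2 RIP, and 67.0 and 139 FPKM in input. It fell by 2.68 ± 0.48 against input (log2, SE, adjusted p = 0.010), and the call was lost in the paired fit with replicate letter as a block. Against IgG, Snord118 was at 21.3 and 9.08 FPKM in AUTS2 RIP, and 33.6 and 16.6 FPKM in IgG, with groups that overlap and no call. Of the 3 copies of U14 in the chaperone gene Hspa8, each over one of its exons, Snord14d fell by 1.38 against IgG and by 2.25 against input, while Snord14c was called lower against input without a call against IgG, and Snord14e was called in neither. The call of Snord14d against IgG was lost with the length trend removed (-0.52, adjusted p = 0.19). Snord14c had 8.14 and 5.26 FPKM in AUTS2 RIP, and 24.0 and 66.4 FPKM in input, and its call too was lost under the replicate block. Whether Snord14c and Snord14d differ was not tested. Snord13 (U13), which in human cells guides acetylation of small-subunit RNA, had 7.05 and 4.79 FPKM in AUTS2 RIP, and 10.9 and 13.8 FPKM in input, which are 3 and 2 fragments against 2 and 2. It was called lower against input (adjusted p = 0.026), with a fragment ratio of 0.49 (0.10 to 2.45). That call of Snord13 was lost and the sign turned with the length trend removed (0.22, adjusted p = 0.54). In the same setting Snord13 was called higher against IgG (2.34, adjusted p = 0.038, limma). That call rests on 3 and 2 fragments in AUTS2 RIP, and 0 and 1 in IgG. U3, the most abundant box C/D RNA of many cells, is annotated as Rnu3a outside the rule. Rnu3a had 46.8 and 54.7 FPKM in AUTS2 RIP, and 420 and 427 FPKM in input.

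Among box H/ACA RNAs, Snora23 had the most negative log2 fold change of the tested members against IgG. It stood at 5.22 and 10.7 FPKM in AUTS2 RIP, and 56.4 and 73.3 FPKM in IgG, which are 4 and 8 fragments, against 16 and 30. In the table with input it stood at 5.31 and 10.8 FPKM in AUTS2 RIP, and 55.3 and 74.3 FPKM in input, at 18 and 19 fragments in input. Both controls lay well above both AUTS2 RIP libraries. Snora23 fell by 2.94 ± 0.30 against IgG and by 2.91 ± 0.32 against input (log2, SE, adjusted p = 0.0033 and 0.0020), with fragment ratios of 0.12 (0.06 to 0.23) and 0.13 (0.06 to 0.25). Its host Ipo7, an importin, was not called in either comparison (log2 fold change 0.16 and -0.05).

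Snora81 had 51.4 and 54.9 FPKM in AUTS2 RIP, and 106 and 113 FPKM in IgG. Against input it had 52.4 and 55.7 FPKM in AUTS2 RIP, and 348 and 439 FPKM in input. It fell by 1.03 ± 0.11 and by 2.83 ± 0.13 in those comparisons (log2, SE, adjusted p = 0.0033 and 0.00068). With the length trend removed both calls held at smaller changes (-0.42, adjusted p = 0.041, and -1.88, adjusted p = 0.00074, limma). Its host Eif4a2, a translation initiation helicase, was not called in either (log2 fold change -0.33 and -0.54). Snora62, in the ribosomal protein gene Rpsa, had 24.2 and 24.7 FPKM in AUTS2 RIP, and 47.9 and 42.2 FPKM in IgG, and fell by 0.86 (log2). It fell by 1.54 against input, where Rpsa itself fell by 1.44. Both calls of Snora62 were lost with the length trend removed (-0.18, adjusted p = 0.53, and -0.51, adjusted p = 0.10).

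Snora21, the most abundant box H/ACA RNA beside IgG, was called lower against IgG and not called against input. It had 126 and 132 FPKM in AUTS2 RIP, and 161 and 177 FPKM in IgG, and fell by 0.38 ± 0.10 (log2, SE, adjusted p = 0.042). Against input it had 128 and 134 FPKM in AUTS2 RIP, and 124 and 142 FPKM in input, so the groups overlapped, and its fragment ratio was 1.00 (0.73 to 1.38). With the length trend removed it became higher than input, by 1.05 on the log2 scale (adjusted p = 0.0035). Its host Rpl23 moved apart from it, at 27.4 and 37.9 FPKM in AUTS2 RIP, and 130 and 143 FPKM in input. Snora44 was not called against IgG or input (log2 fold changes of -0.06 and -0.17), nor was Snora74a (-0.45 and -0.25). Snora44, which an exon of its host Snhg12 overlaps, was called higher in both once the length trend was removed (0.67, adjusted p = 0.043, and 0.92, adjusted p = 0.017, limma). Snora74a was then called higher against input (0.66, adjusted p = 0.0073) and not against IgG (0.13, adjusted p = 0.50, limma). Snora73a and Snora73b (U17), needed for small-subunit processing, differ in call: Snora73b fell by 0.82 against IgG and 1.10 against input, while Snora73a was not called, with log2 fold changes of -0.52 and 0.70. Both calls of Snora73b were lost with the length trend removed (-0.26, adjusted p = 0.30, and -0.21, adjusted p = 0.68). The difference between the pair was not tested, and an exon of another gene overlaps each.

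Among scaRNAs, Scarna10 (U85), which carries both kinds of boxes and guides modification of U5 snRNA, had the highest level of any member in the AUTS2 RIP libraries. It stood at 603 and 437 FPKM in AUTS2 RIP, and 531 and 666 FPKM in IgG. In the table with input it stood at 614 and 444 FPKM in AUTS2 RIP, and 522 and 595 FPKM in input. The groups overlapped in both tables, with log2 fold changes of -0.21 ± 0.18 and -0.09 ± 0.16 (SE). The fragment ratio was 0.85 (0.78 to 0.93) against IgG and 0.96 (0.87 to 1.06) against input. Its host Ncapd2, a condensin subunit with an exon over it, was higher in AUTS2 RIP in both (0.98 and 1.26). Scarna13 (U93) also overlapped, at 160 and 114 FPKM in AUTS2 RIP, and 127 and 150 FPKM in IgG, with log2 fold changes of -0.04 and 0.15 in the comparisons with IgG and with input. With the length trend removed, Scarna10 (0.71, adjusted p = 0.028) and Scarna13 (0.98, adjusted p = 0.015) were called higher against input, and neither was called against IgG.

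Scarna2, which guides modification of U2 snRNA and has its own gene on chromosome 3 with no host, was lower. It stood at 149 and 100 FPKM in AUTS2 RIP, and 393 and 488 FPKM in IgG. Against input it stood at 152 and 102 FPKM in AUTS2 RIP, and 238 and 215 FPKM in input. Scarna2 rests on 426 fragments in AUTS2 RIP and 700 in IgG, with a ratio of 0.28 (0.25 to 0.31). It fell by 1.83 ± 0.20 against IgG and by 0.86 ± 0.19 against input (log2, SE, adjusted p = 0.0037 and 0.018). With the length trend removed, the call against IgG held (-1.52, adjusted p = 0.0090) and that against input did not (-0.29, adjusted p = 0.33). Scarna6 had 42.6 and 36.1 FPKM in AUTS2 RIP, and 48.9 and 61.1 FPKM in IgG, without a call. It was called lower against input, at 43.3 and 36.6 FPKM in AUTS2 RIP, and 64.0 and 65.1 FPKM in input (log2 fold change -0.68, adjusted p = 0.0087). That call of Scarna6 was lost and the sign turned with the length trend removed (0.15, adjusted p = 0.48). Scarna17 was called lower against IgG at 5 and 4 fragments in AUTS2 RIP and 4 and 5 in IgG, and Scarna3b at under 1 fragment in AUTS2 RIP and 2 in IgG. Scarna9 was listed at 0 in all libraries of both tables.

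**Figure D5:**
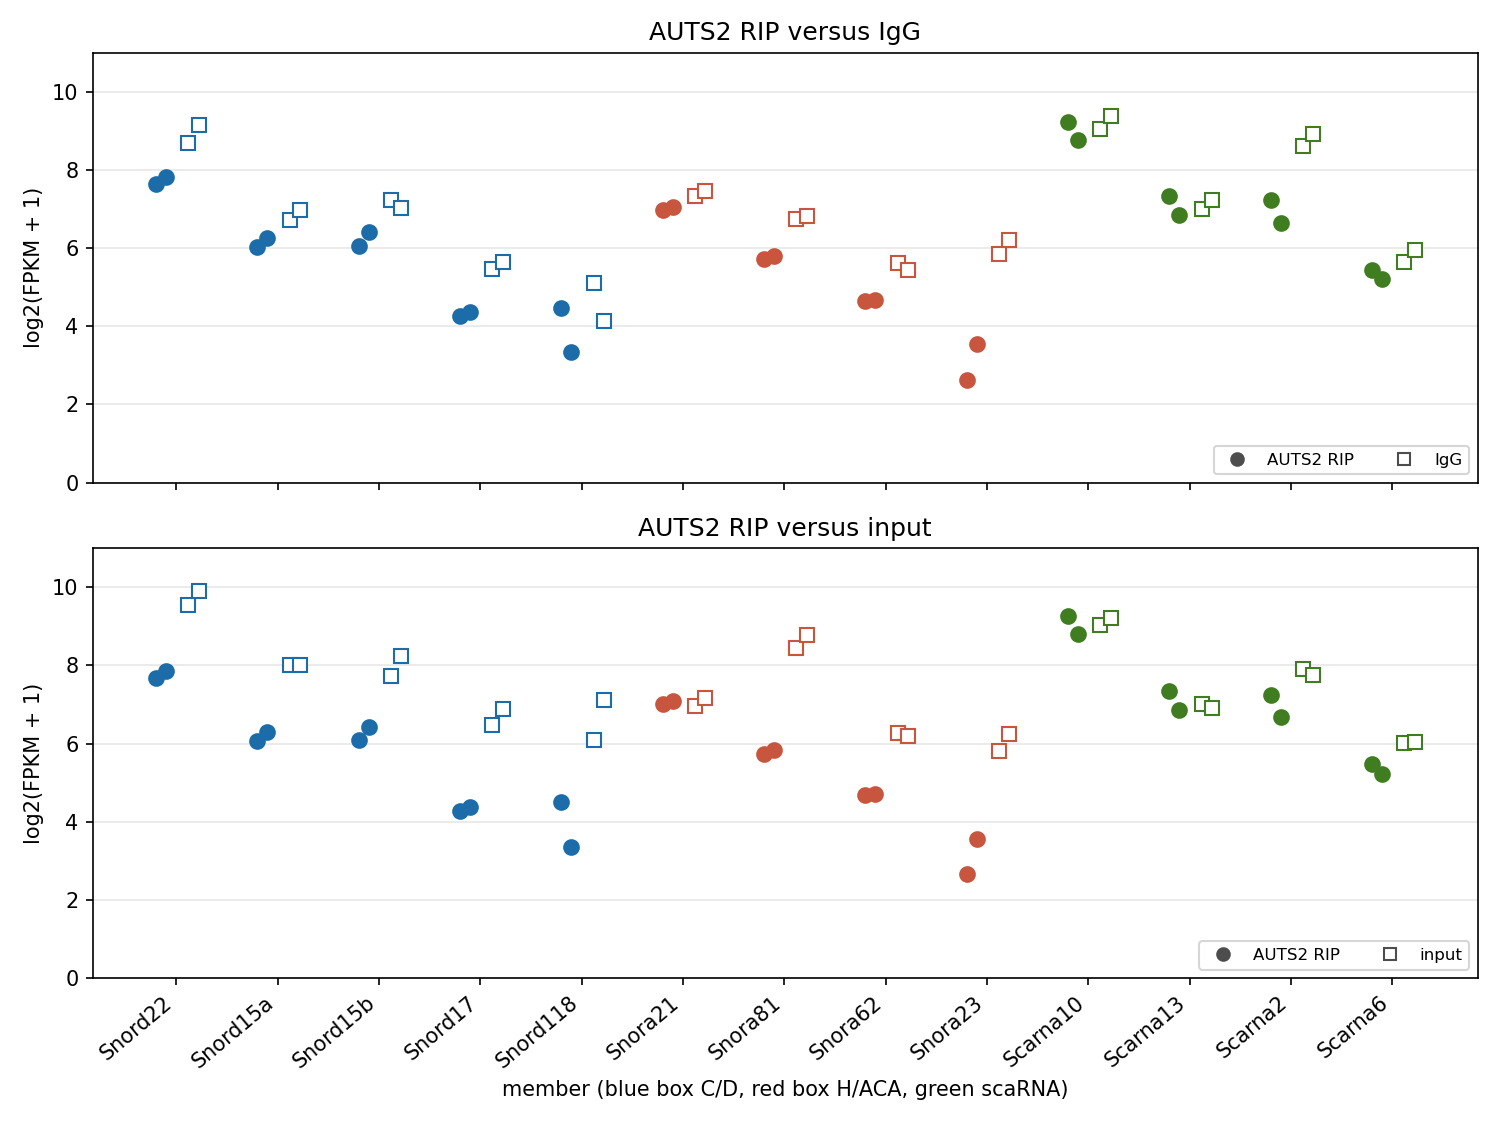
Level of 13 members in each pull-down library as log2(FPKM + 1), AUTS2 RIP as filled circles and its control as open squares (libraries A then B), against IgG above and input below. Snora23 and Scarna2 stand lower in AUTS2 RIP in both panels, and Scarna10 and Scarna13 overlap.

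Apart from Snord16a, the higher calls rested on about 2 to 6 fragments in all. Snord68 had 2.76 and 2.85 FPKM in AUTS2 RIP, which is 1 fragment in each library, and was listed at 0 in both IgG and both input libraries. Snora7a had 1 and 2.65 fragments in AUTS2 RIP, and was listed at 0 in both IgG libraries. Snora9 had 4.25 and 1.57 fragments in AUTS2 RIP and Snord88a had 3 and 0.99, and both were listed at 0 in both input libraries. At 3 fragments for a group at 0, the limit used here, none of these 4 can be shown to be higher, since the controls were shallower. Snord16a, with 22.8 and 10.6 FPKM in AUTS2 RIP, and 5.95 and 6.09 FPKM in IgG, was called higher against IgG and lower against input (23.2 and 10.8 FPKM in AUTS2 RIP, 38.4 and 93.5 FPKM in input), and this lower call was lost under the replicate block. Snord16a rests on 9.39 and 4.29 fragments in AUTS2 RIP, and 0.91 and 1.34 in IgG, with a ratio of 2.78 (0.73 to 29.0). Its call against input was lost with the length trend removed (-0.65, adjusted p = 0.23).

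Zeros on the AUTS2 RIP side were likewise mostly thin. Snord7 was listed at 0 in both AUTS2 RIP libraries and had 5.83 and 22.2 FPKM in input, 4 fragments in all. It was 3.42-fold lower with AUTS2 RIP set at a floor of 3 fragments over the group and the 4 in input taken as exact. That fold leaves out the counting error of the input, so it is not a lower limit. Snord35b and Snora36b were called lower against input at 0 in both AUTS2 RIP libraries, with 2.9 and 3 fragments in input. Both groups are then at or under that floor, so no fold is given. Snora43, Snora20 and Snora52 were called lower against input with 1, 2 and 1.85 fragments in AUTS2 RIP, and 5, 5 and 4.76 in input. Against IgG, Snord35a had 1 and 1 fragments in AUTS2 RIP, and 2 and 3 in IgG, with a ratio of 0.18 (0.02 to 1.12). Snord67, Snord32a and Snora61 were lower against IgG with ratio intervals that held 1. Members at 0 in both AUTS2 RIP libraries, averaging at least 1 FPKM in a control and called in neither direction, had at most 1 fragment in 1 IgG library (Snord43, Snord66, Snord92, Snora75, and Snord35b and Snora36b in that comparison), in 1 input library (Snord72 and Snora19) or in 1 of each (Snord70). Those at 0 in a control group, averaging at least 1 FPKM in AUTS2 RIP and not called, had 1 to 2.5 fragments in 1 AUTS2 RIP library (Snord34, Snord49a, Snord55, Snord69, Snora2b and Snora26) or 2.82 (Snord14a, the U14 copy in Rps13).

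Most hosts were not called against IgG. Of 58 hosts tested there, 10 were higher and 5 lower in AUTS2 RIP and 43 were not called, with a median log2 fold change of 0.08. That is 17.2% higher and 8.62% lower, near the shares of all genes, 13.7% and 9.69%. Of the 20 members called lower that have a host, 4 had a host called lower, 1 a host called higher and 15 a host without a call. Against input, 61 hosts were tested, with 11 higher, 19 lower and 31 not called, and a median of -0.21. That is 18% higher and 31.1% lower, beside 19.3% and 16.6% of all genes. Of the 35 members called lower there with a host, 11 had a host called lower, 6 a host called higher and 18 a host without a call.

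The mRNAs for the protein partners moved in both directions. Of 24 genes for snoRNP core and assembly proteins, 4 were higher and 2 lower against IgG, and 3 were higher and 3 lower against input. These are 16.7% and 8.33% against IgG, beside 13.7% and 9.69% of all genes, and 12.5% and 12.5% against input, beside 19.3% and 16.6%. Phax, the export adaptor of capped small RNAs, had 64.6 and 72.0 FPKM in AUTS2 RIP, and 26.3 and 34.3 FPKM in IgG, and its log2 fold change was 1.16 ± 0.16 (SE, adjusted p = 0.0057). Nop56, a box C/D core protein whose own gene hosts snoRNAs, had 94.6 and 103 FPKM in AUTS2 RIP, and 38.2 and 56.8 FPKM in IgG (log2 fold change 1.07). Nolc1, a Cajal body and nucleolar chaperone, rose by 0.87 against IgG and 0.68 against input. Snu13, the protein that binds the C/D core first, fell by 1.47 against input, at 7.85 and 7.18 FPKM in AUTS2 RIP, and 26.4 and 19.2 FPKM in input.

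Other small structured noncoding RNAs outside the rule fell as well: 11 of 16 tested were lower and 1 higher against IgG, and 13 of 15 were lower against input. Over all genes 9.69% were lower and 13.7% higher against IgG, and 16.6% and 19.3% against input. The medians of these RNAs were -1.38 and -2.60, beside -0.57 and -0.82 for other genes of 60 to 400 nt. These RNAs were not examined with the length trend removed. Rn7sk, the 7SK RNA of transcription elongation control, had 2000 and 2131 FPKM in AUTS2 RIP, and 4046 and 3867 FPKM in IgG.

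In frontal cortex the members were almost absent from polyA-selected RNA. Of 147, 36 were above 0 in any library and 0 averaged 1 FPKM, so none was tested. Among 12786 genes, 0.0235% were called (0.00782% higher and 0.0156% lower in Auts2 cKO), and the groups stood apart for 2.65% higher and 1.76% lower. The members summed to 3.3 to 4.1 FPKM in Auts2 cKO and 2.2 to 5.2 FPKM in wild type, which is 12.4 to 15.0 fragments against 6.78 to 17.9. Scarna6, the highest, had 1.04, 0.20, 0.43 and 0.38 FPKM in Auts2 cKO, and 1.38, 0.21, 0.42 and 0.95 FPKM in wild type, at 1 to 7 fragments a library, with groups that overlap. Snora73b and Snora41 followed at 0 to 2 fragments. With so few fragments, no difference between genotypes was detectable at this depth, and in tissue libraries fewer cells of a type and less RNA per cell cannot be told apart.

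Auts2 itself had 29.8, 35.2, 30.4 and 34.5 FPKM in Auts2 cKO, and 87.7, 92.2, 55.9 and 60.2 FPKM in wild type (log2 fold change -1.13, adjusted p = 0.024, limma). All Auts2 cKO libraries lay below all wild type libraries. The markers of cortical excitatory neurons and progenitors averaged at least 1 FPKM in the pull-down set (11 of 11). Against IgG, 0 of the markers of any listed cell type were called, beside 23.4% of all genes. Against input, 3 of 11 cortical neuron markers, 2 of 2 oligodendrocyte lineage markers and 1 of 4 interneuron markers were higher. Lower against input were 1 of 11 cortical neuron markers, 2 of 3 red blood cell markers, 1 of 2 endothelial markers and 1 of 3 astrocyte markers. There, 0 of 3 microglia markers were called. Over all genes 19.3% were higher and 16.6% lower in that comparison. The red blood cell markers summed to 18.4 and 38.2 FPKM in AUTS2 RIP, and 65.4 and 73.2 FPKM in input, and the part of other cell types in the member values was not tested.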

How the data were processed

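The deposited tables hold FPKM per GENCODE vM14 transcript, made by the authors, per the file headers, with STAR 2.5, SAMtools and Cuffdiff 2.2.1 on GRCm38.p4 (mm10), per the submitters' processing notes. Per the labels' protocols, pull-downs followed the Millipore Magna-RIP procedure with SMARTer stranded libraries, and frontal cortex RNA was polyA RNA for TruSeq libraries. The 3 tables were scaled separately, so tests stayed within a table. The treatment of multiply mapped reads is not described in the labels. All value columns were used, and 1 cKO column was matched by its library number.

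Transcripts were matched by ID to GENCODE vM21 (same build) for symbols, lengths, positions and sequences (127975 of 128508 matched), and summed per symbol. Tests used limma 3.58.1 in R 4.3.3 on log2(FPKM + 1), for genes averaging at least 1 FPKM over the libraries compared, with mean-variance trend, robust empirical Bayes and Benjamini-Hochberg adjustment over all genes at 0.05. Fold changes are on that scale and understate changes of low genes. The procedure was tested on simulated data, where its share of false calls with 2 libraries a group was above the nominal level. Counting intervals used scipy 1.17.1. Depth is given as the FPKM that 1 fragment is worth at 130 nt: 1.85 to 1.91 in AUTS2 RIP, 3.46 to 4.99 in IgG, 4.35 to 5.53 in input and 0.352 to 0.443 in frontal cortex, a smaller worth being a deeper library. No 2 libraries held identical values.

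The letters A and B pair AUTS2 RIP, IgG and input libraries because the series' design calls them matched trios from 2 biological replicates. The correlation, over genes, of what sets same-lettered libraries off from the mean of their group was 0.0088 (AUTS2 RIP and IgG) and 0.012 (AUTS2 RIP and input). With 2 libraries a group, p-values rest on the spread between these libraries. The empirical Bayes step draws each gene's variance toward that of genes of like level, so they do not measure that gene's own spread alone. The members and lists were chosen with earlier results of these data known. Named members were every called member, or the 10 with the largest fold change and separate groups where over 10 were called in a direction, the 4 highest of each class, members of special role, members at 0 in a whole group, and the 3 highest in frontal cortex. Alternatives tried were pseudocounts of 0.1 and 5, no filter and a filter at 5 FPKM, median-ratio and quantile scaling, limma without trend and robust settings, the replicate block, removal of the length trend, single transcripts, and each library left out.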

Additional observations from a re-analysis of the deposited data

Results flagged for a closer look

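In frontal cortex, Snora73b in Auts2 cKO library 1 was at 0 FPKM, apart from 0.264, 0.281 and 0.244 FPKM in the other Auts2 cKO libraries. In wild type library 3 it was at 0.546 FPKM, apart from 0.255, 0.269 and 0.247 FPKM in the others. Each gap is that of 1 fragment: 0 against 1 in Auts2 cKO, and 2 against 1 in wild type. For values with a smooth spread, chance puts a library that far from the rest in about 1 of 20 groups. That rate does not hold for values of 0 to 2 fragments, and the rate there was not computed.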

How the results depend on the processing

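Against IgG, 25 of 83 members were called (3 higher, 22 lower). The count was 12 (6 higher, 6 lower) with the length trend removed, 13 (2 higher, 11 lower) without limma's trend and robust settings, and 0 (0 higher, 0 lower) on single transcripts. Over all 14570 genes, 1994 were higher and 1412 lower as reported. These were 1852 and 1413 with the length trend removed, and 942 and 934 without limma's trend and robust settings. Of all 31647 single transcripts, 0 were called. The higher calls numbered 1 of 60 with a filter at 5 FPKM and 1 of 83 with pseudocount 0.1. Over all genes these settings called 2182 of 8929 and 1966 of 14570 higher. Against input, 42 of 84 were called (3 higher, 39 lower). The count was 27 (14 higher, 13 lower) with the length trend removed and 9 (0 higher, 9 lower) on single transcripts, and 0 were higher with a filter at 5 FPKM. Over all 14458 genes, 2795 were higher and 2393 lower as reported, and 2743 and 2317 with the length trend removed. Of 31189 single transcripts, 1398 were higher and 735 lower, and 2767 of 9144 genes were higher with the filter at 5 FPKM. Leaving out a library gave 0 to 18 calls against IgG (0 to 7 higher, 0 to 15 lower) and 17 to 36 against input (0 to 5 higher, 17 to 31 lower). A lone library was then assumed to vary like the other group.

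Subsets chosen after seeing the data gave, with at least 10 fragments, 1 higher and 20 lower of 52 against IgG and 0 higher and 31 lower of 52 against input. Among members that no other exon overlaps, 11 of 38 were called against IgG (0 higher, 11 lower) and 19 of 37 against input (0 higher, 19 lower). The same subsets were not made over all genes. In the paired fit with replicate letter as a block, 33 members were called against IgG (4 higher, 29 lower) and 43 against input (3 higher, 40 lower). Over all genes the block called 2023 higher and 1432 lower of 14570 against IgG, and 2814 and 2408 of 14458 against input. Snora52, Snora9 and Snord118 gained a call there against IgG, as did Snora7a and Snord67 against input, and Snord118, Snord14c and Snord16a lost theirs against input. The block changed no other call of a named member. In frontal cortex the numbers 1 to 4 only name animals, and with them as a block 0 members were called, as under every other setting.

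With the length trend removed, 27 log2 fold changes turned positive against IgG and 30 against input (3 and 12 of them called lower as reported). Among named members called before or after, these were, against IgG, Snora21 (0.32), Snora44 (0.67) and Snord21 (0.17). Against input they were Scarna10 (0.71), Scarna6 (0.15), Snora21 (1.05), Snora44 (0.92), Snora74a (0.66), Snord13 (0.22) and Snord21 (0.33). Without input A, Snord35a turned to 1.90 against input, and without input B it was -2.41. Median-ratio and quantile scaling reversed no called member that is named. Calls that held in all 10 settings that keep every library and whole genes numbered 6 of 22 lower calls against IgG (Scarna2, Snora23, Snora81, Snord17, Snord22 and Snord35a) and 9 of 39 against input (Snora23, Snora81, Snord14d, Snord15a, Snord15b, Snord17, Snord22, Snord35b and Snord7). With at least 10 fragments these were 5 against IgG and 7 against input, since Snord35a, Snord35b and Snord7 rest on fewer. Beyond fewer libraries or members tested, the causes of these shifts were not tested.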
